A study of Mus musculus with 19 samples.

Results

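The genes described are Cd300a, Cd300lf, Cd300lb and Cd300ld, receptors of the Cd300 family, and the paired immunoglobulin-like receptor gene Pilra. They are 5 of the 23951 genes in each of the study's expression tables. They were chosen by name, with results of these data already known, so their levels and differences are given as a description and without p-values. RNA was measured in hippocampal microglia sorted for CD11b and CD45, in 5 groups of 3 libraries, as FPKM, a level that is corrected for transcript length and for the mapped fragments of each library. At 4.5 months of age the groups were CK-p25 PU.1 cKO (PU.1 fl/fl with Cx3cr1CreER+/- and CK-p25), CK-p25 (Cx3cr1CreER+/- and CK-p25) and CK littermates (Cx3cr1CreER+/- without p25). In CK-p25 mice, forebrain neurons express p25, an activator of Cdk5, when induced, and they degenerate. All 4.5-month mice received tamoxifen at 50 mg/kg on 5 days at the start of p25 induction, and tissue was taken 6 weeks later. At 3 months the groups were labelled PU.1 cKO (PU.1 fl/fl with Cx3cr1CreER+/-) and labelled control (Cx3cr1CreER+/- alone), with the same tamoxifen course and tissue taken 1 week later. In both sets the deletion depends on the Cx3cr1 promoter, which is also active in some other myeloid cells, and the control mice carry the same Cre allele and received the same drug.

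Cd300 receptors are single-domain immunoglobulin-like proteins of myeloid cells that bind lipids such as phosphatidylserine, which is exposed on dying cells. Cd300a, Cd300lf and Pilra carry inhibitory tyrosine motifs in their tails that recruit phosphatases such as SHP-1, the product of Ptpn6. Cd300lb and Cd300ld lack such tails and signal through adaptors with activating motifs, among them the products of Tyrobp (DAP12) and Fcer1g. Pilra is paired with the activating receptors Pilrb1 and Pilrb2, and Pilra binds sialylated glycoproteins.

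The 4 Cd300 genes lie on chromosome 11 and Pilra lies on chromosome 5, in RefSeq's GRCm38.p6 assembly. Cd300a and Cd300lb are neighbours, Cd300c and Cd300ld are neighbours, and Cd300lf is next to Cd300e. Because PU.1 is the factor deleted in the study, the windows around the annotated start sites (250 bases before to 50 after, 300 bases in all) were searched on both strands for GAGGAA, the core of the PU.1 recognition sequence, and for the longer GAGGAAGT, which contains it. GAGGAA or its complement was found in the windows of 4 of the 5 genes and in 28.3% of all 32851 RefSeq windows, and GAGGAAGT in those of 2 of the 5 genes (Cd300lf and Cd300ld) and in 3.2% of all windows. The 4 windows with a match are printed 5′ to 3′ on the gene's own strand, with matches in capitals. Cd300lf is at chr11:115133943-115134242 on the minus strand, Cd300ld at chr11:114989837-114990136 on the minus strand, Pilra at chr5:137836229-137836528 on the minus strand and Cd300a at chr11:114889791-114890090 on the plus strand.
Cd300lf: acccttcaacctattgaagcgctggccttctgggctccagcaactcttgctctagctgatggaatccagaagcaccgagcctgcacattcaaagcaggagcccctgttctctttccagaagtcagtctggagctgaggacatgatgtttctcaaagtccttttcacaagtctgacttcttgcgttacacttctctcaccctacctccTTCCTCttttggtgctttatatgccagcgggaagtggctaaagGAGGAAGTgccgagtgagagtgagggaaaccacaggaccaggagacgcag
Cd300ld: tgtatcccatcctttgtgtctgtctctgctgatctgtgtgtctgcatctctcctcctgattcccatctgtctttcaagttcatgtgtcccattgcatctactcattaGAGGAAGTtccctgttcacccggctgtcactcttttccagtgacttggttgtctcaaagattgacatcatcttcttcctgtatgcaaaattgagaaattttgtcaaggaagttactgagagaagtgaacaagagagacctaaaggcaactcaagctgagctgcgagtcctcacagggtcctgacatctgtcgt
Pilra: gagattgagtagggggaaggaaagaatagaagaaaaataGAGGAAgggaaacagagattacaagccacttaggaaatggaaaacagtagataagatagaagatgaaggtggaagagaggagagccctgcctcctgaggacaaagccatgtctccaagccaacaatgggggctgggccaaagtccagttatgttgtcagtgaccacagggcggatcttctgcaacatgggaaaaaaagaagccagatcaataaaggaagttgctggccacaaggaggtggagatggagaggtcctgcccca
Cd300a: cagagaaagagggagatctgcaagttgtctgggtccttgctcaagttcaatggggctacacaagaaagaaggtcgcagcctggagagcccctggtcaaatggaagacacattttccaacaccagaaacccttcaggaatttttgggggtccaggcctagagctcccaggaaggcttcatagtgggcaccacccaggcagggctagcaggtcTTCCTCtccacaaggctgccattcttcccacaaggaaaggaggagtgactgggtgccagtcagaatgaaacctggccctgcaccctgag
In Cd300lf the long match begins at the annotated start site and a second, short match lies 43 bases before it on the opposite strand. In Cd300ld the long match begins 143 bases before the start site. In Pilra a short match begins 211 bases before it, and in Cd300a a short match on the opposite strand lies 39 bases before it. The window of Cd300lb holds neither motif. These matches are letters in a window and do not show binding.

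Whether reads of the paired Pilra and Pilrb genes were divided between similar copies is not known. No transcript sequences were compared, only start-site windows, of which 250 of 300 bases lie before the start site. The longest run of identical bases in their start-site windows was 179 between Pilra and Pilrb2 and 86 between Pilra and Pilrb1, against at most 9 between any pair of the members. The library kits do not mark strand. Where genes overlap, as Rab37 does with Cd300lf and Zcwpw1 with Pilra, strand therefore cannot tell their reads apart. Only whole gene spans were compared, so whether their exons overlap is not known. Rab37 stood at 0.82 FPKM or less in all 15 libraries. Zcwpw1 lay between 2.79 and 10.8 FPKM.

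Spi1, the gene of PU.1, measured 165, 152 and 224 FPKM in the CK-p25 PU.1 cKO libraries, 251, 208 and 298 FPKM in CK-p25 libraries and 256, 230 and 251 FPKM in CK libraries. It did not pass the test in CK-p25 PU.1 cKO against CK-p25 (log2 difference -0.49 ± 0.17 SE, limma adjusted p = 0.745). In the 3-month set Spi1 went against the titles. It measured 409, 338 and 337 FPKM in labelled PU.1 cKO libraries and 261, 105 and 248 FPKM in labelled control libraries, with no overlap (0.92 ± 0.35, limma adjusted p = 0.0853). Labelled control replicate 2 held the lowest value, and without it the difference of Spi1 was 0.50 ± 0.17 and passed the test (limma adjusted p = 0.0478, against 0.0549 to 0.201 in the other alternatives except quantile normalization, where it was 1.14 with limma adjusted p = 0.0126). There the sample titles, genotypes and source names put a library in one group, while the column names given for the same samples carry the other group's name. The titles were followed, and under the column names every 3-month difference given here has the opposite sign. Read depth is unknown, and the summed FPKM, which ran from 449784 to 650063, is not a depth. CK-p25 replicate 3, whose label carries another sequencing-file prefix than the other 8 libraries of its set, had 42.1% of genes at 0. Whether replicate libraries are separate animals is not stated in the labels, and the p-values cover the spread between the libraries, part of which may be technical. In sorted bulk samples, fewer cells of a type and less RNA per cell cannot be told apart.

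Cd300a was the most abundant member in CK microglia, and it was lower in both groups with p25. Cd300a, an inhibitory receptor for phosphatidylserine, measured 40.8, 37.0 and 47.2 FPKM in the CK-p25 PU.1 cKO libraries, 43.5, 37.7 and 49.3 FPKM in CK-p25 libraries and 51.5, 59.1 and 65.0 FPKM in CK libraries. No library with p25 reached the lowest CK library, and the 2 p25 groups overlapped. On the log2(FPKM + 1) scale, which is used for all differences and understates those of low genes, the difference was -0.42 ± 0.14 (SE, 95% interval -0.74 to -0.11) in CK-p25 against CK. It was -0.48 ± 0.14 (-0.80 to -0.17) in CK-p25 PU.1 cKO against CK. The microglia marker list (12 genes, among them P2ry12, Tmem119 and Csf1r) moved the same way: its summed level was 18249 to 20196 FPKM in the CK-p25 PU.1 cKO libraries, 19925 to 22307 FPKM in CK-p25 libraries and 28233 to 31074 FPKM in CK libraries. Its part in the difference of Cd300a was not tested.

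Cd300lf, an inhibitory receptor that binds phosphatidylserine and ceramide, was below 1 FPKM in CK microglia and well above it with p25. It measured 23.2, 18.5 and 17.3 FPKM in the CK-p25 PU.1 cKO libraries, 13.6, 17.3 and 15.4 FPKM in CK-p25 libraries and 0.555, 0.389 and 0.650 FPKM in CK libraries. Every library with p25 lay above every CK library. The mean was 29.0 times that of CK in CK-p25 and 37.0 times in CK-p25 PU.1 cKO. The log2 difference was 3.42 ± 0.14 (95% interval 3.11 to 3.74) in CK-p25 against CK and 3.75 ± 0.14 (3.43 to 4.06) in CK-p25 PU.1 cKO against CK. With a pseudocount of 0.1 the difference in CK-p25 against CK became 4.64 and with a pseudocount of 5 it became 1.88.

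Cd300lb, the activating receptor that signals through adaptors, showed a like separation. It measured 11.99, 11.0 and 11.9 FPKM in the CK-p25 PU.1 cKO libraries, 15.4, 8.91 and 19.1 FPKM in CK-p25 libraries and 1.21, 1.23 and 1.04 FPKM in CK libraries. The lowest library with p25 stood above the highest CK library. The mean was 12.5 times that of CK in CK-p25 and 10.1 times in CK-p25 PU.1 cKO. The log2 difference was 2.78 ± 0.23 (2.27 to 3.30) in CK-p25 against CK and 2.55 ± 0.23 (2.03 to 3.07) in CK-p25 PU.1 cKO against CK.

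**Figure D1:**
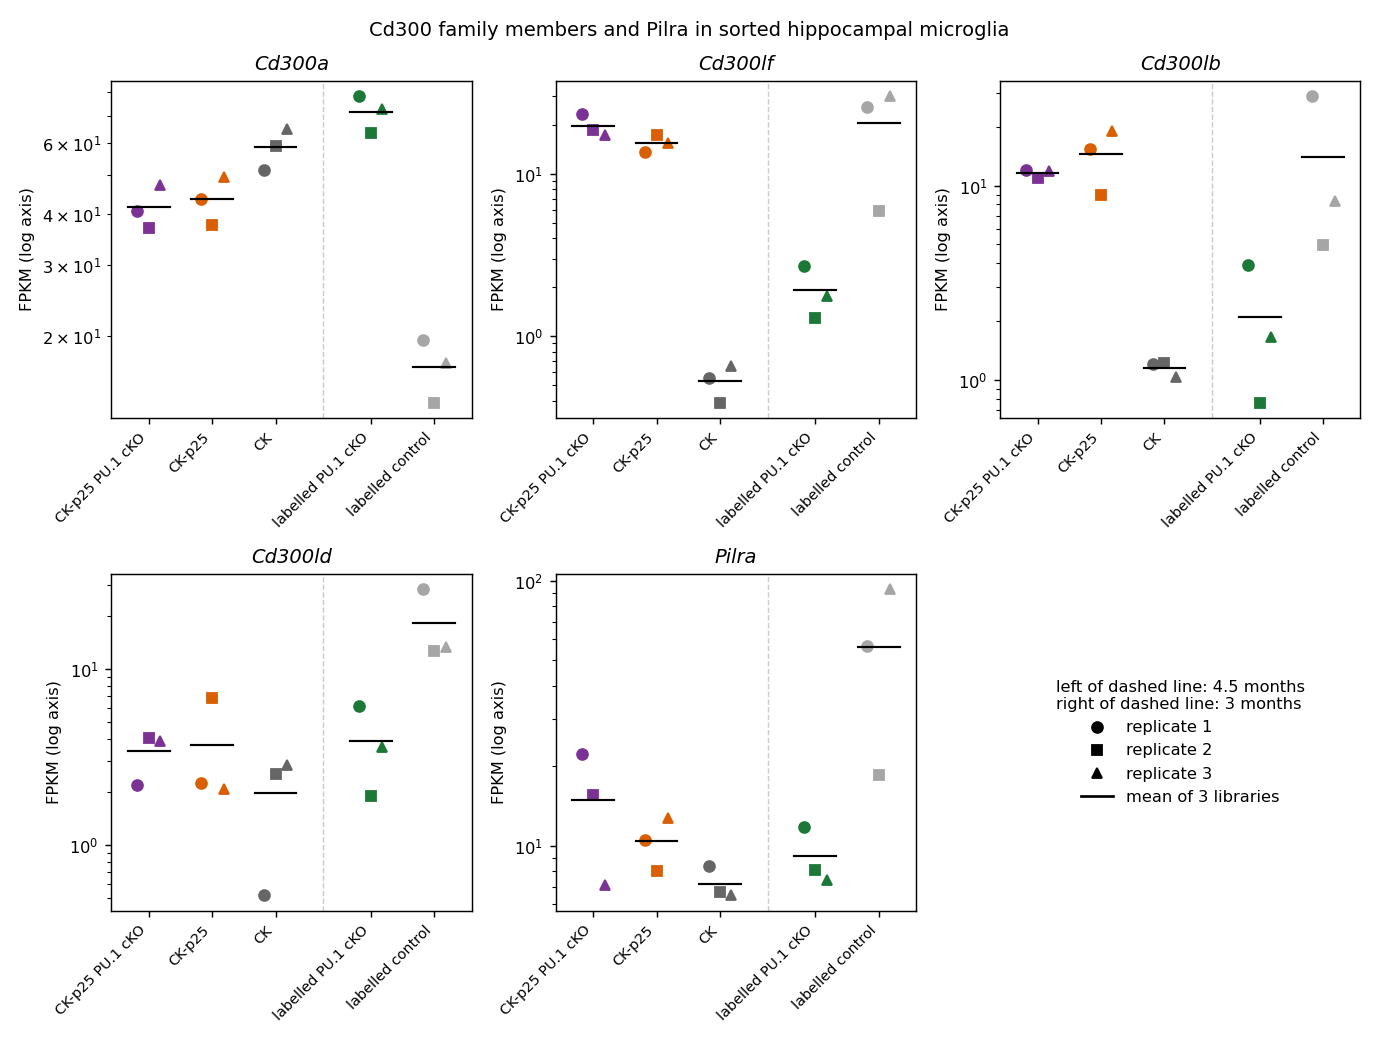
FPKM of each member (log axis) in the 15 libraries, with a panel per gene, a marker shape per replicate number and a bar at the mean of 3 libraries. Cd300lf and Cd300lb were high in both groups with p25 and near 1 FPKM or below in CK, while Cd300a was lower with p25 than in CK.

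Cd300ld and Pilra changed less and their libraries overlapped. Cd300ld, an activating receptor, measured 2.20, 4.07 and 3.92 FPKM in the CK-p25 PU.1 cKO libraries, 2.24, 6.80 and 2.07 FPKM in CK-p25 libraries and 0.516, 2.52 and 2.86 FPKM in CK libraries. The library with 6.80 FPKM was CK-p25 replicate 2, whose neutrophil marker sum was 829 FPKM against 1.66 and 2.38 FPKM in the other CK-p25 libraries. Its monocyte (79.3 FPKM against 37.4 and 38.1) and astrocyte sums (226 against 32.6 and 36.1) were also the highest of the group. The library with 0.516 FPKM was CK replicate 1, in which border macrophage markers summed to 58.5 FPKM against 329 and 373 FPKM in the other CK libraries. Its neutrophil (2.68 FPKM against 123 and 78.2), monocyte (4.95 against 63.7 and 57.4) and dendritic cell sums (1.99 against 38.5 and 47.4) were also the lowest of the group. The log2 difference was 0.64 ± 0.46 (-0.42 to 1.70) in CK-p25 against CK, 0.20 ± 0.41 without CK-p25 replicate 2 and 0.21 ± 0.42 without CK replicate 1. The part of these markers in Cd300ld was not tested. In CK-p25 PU.1 cKO against CK the difference of Cd300ld was 0.65 ± 0.46 (-0.41 to 1.71), and 0.23 ± 0.42 without CK replicate 1.

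Pilra measured 22.2, 15.5 and 7.10 FPKM in the CK-p25 PU.1 cKO libraries, 10.5, 8.02 and 12.7 FPKM in CK-p25 libraries and 8.37, 6.69 and 6.49 FPKM in CK libraries. Both p25 groups overlapped CK. The difference was 0.47 ± 0.35 (-0.33 to 1.26) in CK-p25 against CK and 0.84 ± 0.35 (0.04 to 1.64) in CK-p25 PU.1 cKO against CK. The second value was 1.26 ± 0.22 with CK-p25 PU.1 cKO replicate 3 left out and 0.50 ± 0.31 with replicate 1 of that group left out.

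The order of the members differed between groups. In CK-p25 PU.1 cKO microglia the mean levels were 41.7 FPKM for Cd300a, 19.7 for Cd300lf, 14.9 for Pilra, 11.6 for Cd300lb and 3.39 for Cd300ld. The libraries of Pilra overlapped those of both of its neighbours in that order. In CK-p25 microglia the order was Cd300a at 43.5 FPKM, Cd300lf at 15.4, Cd300lb at 14.5, Pilra at 10.4 and Cd300ld at 3.70, and the libraries of Cd300lb overlapped those of Cd300lf and Pilra. In CK microglia Cd300a stood at 58.5 FPKM, Pilra at 7.19, Cd300ld at 1.96, Cd300lb at 1.16 and Cd300lf at 0.532. The libraries of the last 3 overlapped between Cd300ld and each of the others. Cd300a was 2.12 times Cd300lf in the means of CK-p25 PU.1 cKO libraries, 2.82 times in CK-p25 libraries and 110 times in CK libraries.

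Past the threshold (limma adjusted p under 0.05 over 10894 genes tested, called higher or lower), 2 of the 5 members were called higher and 1 was called lower in CK-p25 against CK, where 17.6% of all genes were called higher and 13.7% lower. In CK-p25 PU.1 cKO against CK the counts were also 2 higher and 1 lower, against 17.8% and 13.3% of all genes. These 2 comparisons share the CK libraries. Without CK-p25 replicate 3, the library with another sequencing-file prefix, the differences in CK-p25 against CK were -0.51 for Cd300a, 3.42 for Cd300lf, 2.56 for Cd300lb, 0.87 for Cd300ld and 0.32 for Pilra. In each comparison with CK 3 members did not overlap between the groups, against 46.5% of all genes in the first comparison and 58.5% in the second. Cd300a was the member called lower, and its call was lost when any of 6 single libraries was left out in CK-p25 against CK, with differences from -0.43 to -0.32 (CK-p25 PU.1 cKO replicates 1 and 2, CK-p25 replicates 1 and 2, CK replicates 2 and 3). In CK-p25 PU.1 cKO against CK it was lost when CK-p25 PU.1 cKO replicate 1 or 2 or CK replicate 2 or 3 was left out, with differences from -0.47 to -0.40. The count of members called higher in that comparison was 3 without CK-p25 PU.1 cKO replicate 3, with Pilra added.

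Between CK-p25 PU.1 cKO and CK-p25 microglia, which differ in the PU.1 alleles, no member differed by as much as 0.4 on the log2 scale with all libraries in the fit. Cd300lf was 0.32 ± 0.14 higher on the log2 scale (95% interval 0.01 to 0.64) in CK-p25 PU.1 cKO against CK-p25, and the closest libraries of the groups both stood at 17.3 FPKM. The differences of the other members were -0.06 ± 0.14 (-0.38 to 0.25) for Cd300a, -0.23 ± 0.23 (-0.75 to 0.29) for Cd300lb, 0.01 ± 0.46 (-1.05 to 1.07) for Cd300ld and 0.37 ± 0.35 (-0.43 to 1.17) for Pilra. These values moved when single libraries were left out. For Pilra the difference was 0.80 ± 0.22 with CK-p25 PU.1 cKO replicate 3 left out and 0.04 ± 0.31 with replicate 1 of that group left out. Without CK-p25 replicate 2 it was -0.52 ± 0.12 for Cd300lb and 0.45 ± 0.41 for Cd300ld, and without CK-p25 replicate 3 it was -0.01 ± 0.19 for Cd300lb and -0.22 ± 0.51 for Cd300ld. For Cd300lf it lay between 0.21 and 0.41 (CK-p25 PU.1 cKO replicate 1 left out, or replicate 3), and for Cd300a between -0.16 (without CK-p25 replicate 2) and 0.03 (without CK-p25 replicate 3). No member was called with limma, and neither was any of the 10894 genes (0% called), while 12 genes were called higher and 13 lower without CK-p25 PU.1 cKO replicate 3. At an unadjusted p under 0.05, 1 member and 671 genes passed. The libraries of 1 member did not overlap between the groups, against 9.38% of all genes.

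**Figure D2:**
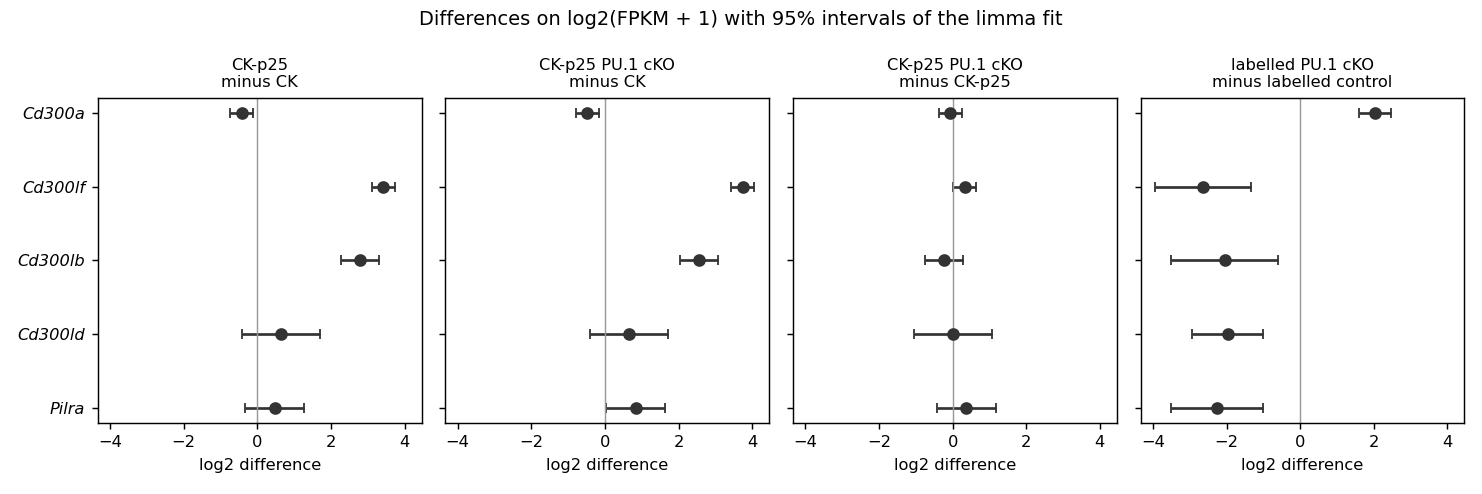
Log2 differences of the 5 members on log2(FPKM + 1), with 95% intervals of the limma fit, for the 4 comparisons. In the comparisons with CK, Cd300lf and Cd300lb lay above 2.5, and at 3 months Cd300a and the other 4 members stood on opposite sides of 0.

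Over the 9 libraries of the 4.5-month set, the genes with the pattern most like each member were those with the smallest root mean square difference from it, on the log2 scale after subtracting the CK mean. For Cd300lf these were H2-K1 (0.250), Oas1a (0.268) and Lgals3bp (0.276), and for Cd300lb they included Rtp4 (0.177) and Ptchd1 (0.209). For Cd300a they were Senp8 (0.0737), Bin1 (0.0840) and Zfp689 (0.0845). For Cd300ld they were Pltp (0.271), Shisa4 (0.278) and Fpr1 (0.283), and for Pilra Tmbim1 (0.260), Cdkn2b (0.264) and Gmnn (0.269). The smaller distances of Cd300a go with its smaller differences between groups.

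At 3 months Cd300a went one way and the other 4 members the other. Cd300a measured 78.2, 63.5 and 72.7 FPKM in labelled PU.1 cKO libraries and 19.6, 13.7 and 17.2 FPKM in labelled control libraries (log2 difference 2.03 ± 0.19, 95% interval 1.59 to 2.47). Cd300lf measured 2.71, 1.30 and 1.77 FPKM in labelled PU.1 cKO libraries and 25.8, 5.86 and 29.9 FPKM in labelled control libraries (-2.64 ± 0.55, -3.93 to -1.34). In both genes the groups did not overlap. Labelled control replicate 2 had the lowest level of its group for every member, and also the lowest microglia marker sum (9778 FPKM). Cd300lb measured 3.92, 0.764 and 1.67 FPKM in labelled PU.1 cKO libraries and 28.8, 4.94 and 8.32 FPKM in labelled control libraries (-2.05 ± 0.62, -3.51 to -0.59). Cd300ld measured 6.18, 1.88 and 3.60 FPKM in labelled PU.1 cKO libraries and 28.4, 12.7 and 13.3 FPKM in labelled control libraries (-1.97 ± 0.41, -2.94 to -1.0). Both activating receptors were highest in labelled control replicate 1, and their groups did not overlap. Pilra measured 11.8, 8.10 and 7.43 FPKM in labelled PU.1 cKO libraries and 56.9, 18.5 and 93.0 FPKM in labelled control libraries (-2.25 ± 0.53, -3.50 to -1.01), again with no overlap.

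The order at 3 months also differed by group. In labelled PU.1 cKO libraries Cd300a averaged 71.4 FPKM, followed by Pilra at 9.11, Cd300ld at 3.89, Cd300lb at 2.12 and Cd300lf at 1.93. The libraries of Cd300ld, Cd300lb and Cd300lf overlapped. In labelled control libraries Pilra averaged 56.1 FPKM, Cd300lf 20.5, Cd300ld 18.1, Cd300a 16.8 and Cd300lb 14.0, and neighbours in that order overlapped in their libraries. Cd300a was 37.1 times Cd300lf in the means of labelled PU.1 cKO libraries and 0.819 times in labelled control libraries.

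With limma over 10845 genes, 1 of the 5 members was called higher and 4 were called lower in labelled PU.1 cKO against labelled control, where 12.4% of all genes were called higher and 17.8% lower. All 5 did not overlap between the groups, against 48.8% of all genes. The count called lower was 1 without labelled PU.1 cKO replicate 2, 2 without labelled PU.1 cKO replicate 3 and 2 without labelled control replicate 1. The call of Cd300lb was lost without any single library except labelled control replicate 2 (-2.45 to -1.38), that of Pilra without labelled PU.1 cKO replicate 2 or 3 or labelled control replicate 1 (-2.19 to -2.11), and that of Cd300lf without labelled PU.1 cKO replicate 2 (-2.48). The call of Cd300lb was also lost with a pseudocount of 5 (-1.24), with no filter (-2.05) and under quantile normalization (-1.91), which left 3 members called lower. Of all called genes 41.1% were higher, and this share was 51.0% after median centring and 53.0% after quantile normalization.

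Marker levels of other cells differed between the 3-month groups beside these values. Neutrophil markers (7 genes in the tables, such as S100a8 and S100a9) summed to between 48.3 and 347 FPKM in labelled PU.1 cKO libraries and to 15014, 120 and 91.9 FPKM in labelled control libraries 1 to 3. Monocyte markers (7 genes, among them Ccr2, Chil3 and F13a1) summed to 70.8 to 118 FPKM in labelled PU.1 cKO libraries and 233 to 1108 FPKM in labelled control libraries. The largest part of the control sums was Chil3 in replicate 1 (785 FPKM) and F13a1 in replicates 2 and 3 (421 and 152 FPKM). Ccr2 itself overlapped, at 2.79 to 7.84 FPKM in labelled PU.1 cKO libraries and 7.42 to 16.3 FPKM in labelled control libraries. Border macrophage markers (7 genes, such as Mrc1) summed to 269 to 359 FPKM in labelled PU.1 cKO libraries and 392 to 1352 FPKM in labelled control libraries, with the highest in replicate 2. Microglia markers summed to 31031 to 35955 FPKM in labelled PU.1 cKO libraries and 9778 to 17329 FPKM in labelled control libraries, and 9 of the 12 were called higher in labelled PU.1 cKO. Of the tested markers, 0 of 7 for neutrophils were called with limma, also at an unadjusted p under 0.05. For monocytes 2 of 6 and for border macrophages 3 of 7 were called lower in labelled PU.1 cKO, against 17.8% of all genes. The monocyte marker Fn1, at a mean of 0.307 FPKM in labelled PU.1 cKO libraries, passed the filter only through labelled control. Without labelled control replicate 1, the library with the high neutrophil sum, the members' differences were 2.14 for Cd300a, -2.34 for Cd300lf, -1.38 for Cd300lb, -1.61 for Cd300ld and -2.11 for Pilra. The part of monocytes and border macrophages in these differences was not tested. Mast cells also express Cd300 receptors, and their markers summed to at most 1.24 FPKM in any library, with Mcpt4 and Tpsb2 at 0 in all 3-month libraries. In the 4.5-month set monocyte markers summed to 53.7 to 140 FPKM in the CK-p25 PU.1 cKO libraries, 37.4 to 79.3 FPKM in CK-p25 libraries and 4.95 to 63.7 FPKM in CK libraries.

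**Figure D3:**
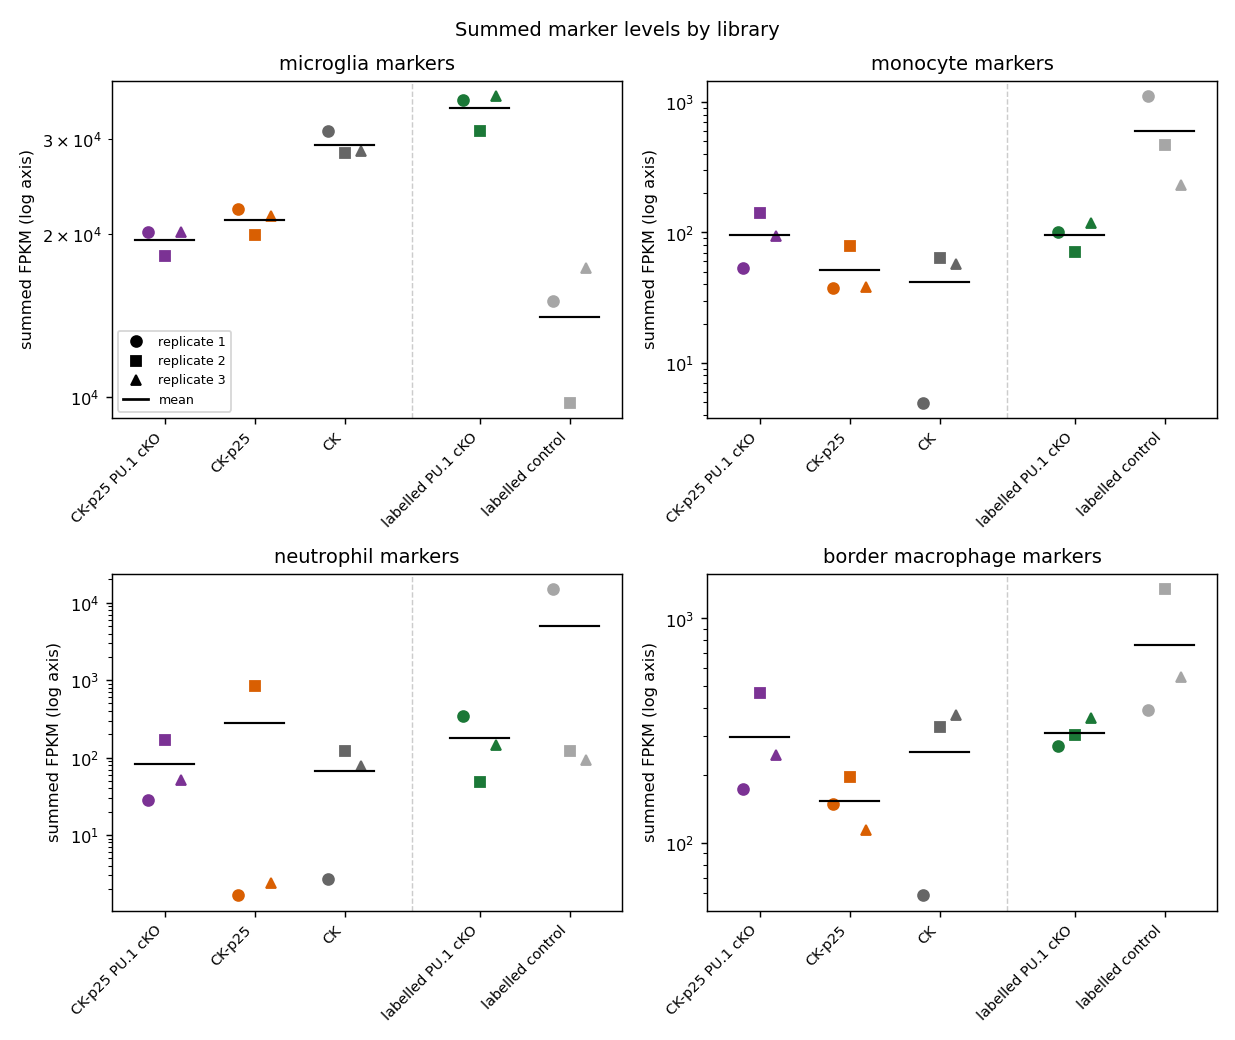
Summed FPKM (log axis) of the microglia, monocyte, neutrophil and border macrophage marker lists in each library, with a bar at the mean of 3 libraries. Labelled control replicate 1 held the highest neutrophil sum, 15014 FPKM, and labelled control libraries had the lowest microglia sums.

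The other family genes in the tables were mostly low. Cd300c, Cd300e, Cd300lg, Cd300lh, Pilrb1, Pilrb2 and AF251705 were present, and only AF251705 passed the filter of a mean of 1 FPKM in the 4.5-month set. Cd300lg and Cd300lh stayed at 0.326 FPKM or less in all 15 libraries, and Cd300c at 2.20 FPKM or less. AF251705 has no match in the gene tables used here. It measured 296, 216 and 347 FPKM in the CK-p25 PU.1 cKO libraries, 415, 346 and 336 FPKM in CK-p25 libraries and 232, 228 and 255 FPKM in CK libraries. Its value in CK-p25 against CK was 0.61 ± 0.17 (limma adjusted p = 0.0270), and the call was lost without CK replicate 1, 2 or 3 or CK-p25 replicate 1 (0.51 to 0.66) and under quantile normalization (0.16). At 3 months it was 275, 242 and 253 FPKM in labelled PU.1 cKO libraries and 51.3, 39.2 and 68.6 FPKM in labelled control libraries, a rise of 2.29 ± 0.23 (limma adjusted p = 0.000755).

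Of the paired activating genes, Pilrb1 measured 1.39, 0.278 and 0.624 FPKM in labelled PU.1 cKO libraries and 11.8, 2.13 and 10.3 FPKM in labelled control libraries (-2.17 ± 0.55, limma adjusted p = 0.0242). Its call was lost when labelled PU.1 cKO replicate 2 or 3 or labelled control replicate 1 or 3 was left out (-2.14 to -1.80). Pilrb2 measured 0.316, 0.142 and 0.159 FPKM in labelled PU.1 cKO libraries and 8.79, 1.08 and 2.85 FPKM in labelled control libraries (-1.83 ± 0.53, limma adjusted p = 0.0378), and its call was lost without any labelled PU.1 cKO replicate or labelled control replicate 3 (-1.91 to -1.79). Both stood in the same direction as Pilra, and whether they share reads with it is not known. Cd300e, an activating family receptor, measured 0.290, 0 and 0.292 FPKM in labelled PU.1 cKO libraries and 3.14, 2.82 and 5.54 FPKM in labelled control libraries (-1.99 ± 0.30, limma adjusted p = 0.00378). Pilrb1, Pilrb2 and Cd300e averaged 0.766, 0.205 and 0.194 FPKM in labelled PU.1 cKO libraries and passed the filter only through labelled control. Only a lower level could therefore be tested, and their calls are no support for a fall.

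Among 15 tested receptors with inhibitory motifs outside these families, 5 were called higher and 4 lower in CK-p25 against CK, with a median difference of 0.05. Over all genes 17.6% were called higher and 13.7% lower. Cd22, a sialic acid-binding receptor, rose by 3.58 ± 0.43 (limma adjusted p = 0.000564), Lilrb4 by 3.48 ± 0.29 (0.000101) and Cd72 by 3.43 ± 0.48 (0.00122). Siglece, another sialic acid-binding receptor, fell by 2.22 ± 0.37 (0.00286), Clec4a2 by 1.77 ± 0.35 (0.00601) and Ceacam1 by 1.10 ± 0.14 (0.000670). In CK-p25 PU.1 cKO against CK the counts were also 5 and 4, against 17.8% and 13.3% of all genes. The named 6 genes were called in the same directions, with the shared CK libraries.

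Among 10 tested of the 26 activating receptors in the tables, 6 were called higher and 0 lower in CK-p25 against CK (8 at an unadjusted p under 0.05). Over all genes 17.6% were called higher and 13.7% lower. The median difference was 0.81, against -0.0003 over all genes. Gp49a, at a CK mean of 0.841 FPKM, passed the filter only through the groups with p25. Clec7a, the beta-glucan receptor, rose by 4.54 ± 0.12 (adjusted p = 5.54e-07), Cd200r4 by 3.66 ± 0.21 (2.07e-05) and Fcgr4, an activating Fc receptor, by 2.92 ± 0.31 (0.000313). Against CK, CK-p25 PU.1 cKO microglia had 5 called higher and 1, Siglech, lower (-0.99 ± 0.16, adjusted p = 0.00213). Over all genes the shares there were 17.8% and 13.3%.

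The adaptors of the activating members were called higher with p25. Tyrobp measured 6377, 4961 and 5058 FPKM in the CK-p25 PU.1 cKO libraries, 6770, 5692 and 4839 FPKM in CK-p25 libraries and 2909, 2419 and 2766 FPKM in CK libraries (1.09 ± 0.16 in CK-p25 against CK, adjusted p = 0.00137). Fcer1g rose by 0.76 ± 0.14 (adjusted p = 0.00487) in the same comparison, Fgr, a Src-family kinase, by 3.63 ± 0.24 (3.35e-05) and Hcst, the DAP10 adaptor, by 1.24 ± 0.33 (0.0227). Of 11 tested adaptors and kinases 5 were called higher and 1, Syk, lower (-0.74 ± 0.18, 0.0175) in CK-p25 against CK. Over all genes the shares were 17.6% and 13.7%. The call of Hcst was lost without CK replicate 2 or 3 or CK-p25 replicate 1 or 2 (0.95 to 1.25), and that of Syk without CK replicate 2 or 3 (-0.70 to -0.68). The counts were 5 higher and 2 lower in CK-p25 PU.1 cKO against CK, where 17.8% and 13.3% of all genes were called. Those 2 were Syk (-0.58 ± 0.18, 0.0457) and Card9 (-0.38 ± 0.11, 0.0360). The call of Syk was lost without any one library of either group or CK-p25 replicate 2 (-0.67 to -0.52), and that of Card9 without any one library of either group (-0.40 to -0.37).

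Ptpn6, the gene of the phosphatase recruited by the inhibitory members, was higher with p25. It measured 344, 294 and 305 FPKM in the CK-p25 PU.1 cKO libraries, 343, 284 and 479 FPKM in CK-p25 libraries and 178, 191 and 199 FPKM in CK libraries. Its rise was 0.93 ± 0.17 (adjusted p = 0.00494) in CK-p25 against CK and 0.73 ± 0.17 (0.0142) in CK-p25 PU.1 cKO against CK. Leaving out CK-p25 PU.1 cKO replicate 1 or CK replicate 1 ended the second call (0.66 and 0.69), and both were lost under quantile normalization (0.48 and 0.32). Csk, a kinase that restrains Src-family kinases, fell by 0.83 ± 0.09 (0.000361) in CK-p25 against CK and by 0.72 ± 0.09 (0.000715) in CK-p25 PU.1 cKO against CK. Inpp5d, the gene of the phosphatase SHIP1, fell by 0.59 ± 0.16 (0.0270) in CK-p25 against CK, a call lost without CK replicate 1, 2 or 3 (-0.62 to -0.54), and was at -0.44 ± 0.16 (0.0768) in CK-p25 PU.1 cKO against CK. Of the 2 tested Pilra ligand genes, Pianp rose by 2.48 ± 0.36 (0.00152) in CK-p25 against CK and by 2.90 ± 0.36 (0.000720) in CK-p25 PU.1 cKO against CK. The CK mean of Pianp was 0.148 FPKM, and it passed the filter only through the groups with p25, so the direction was set by the filter. Pianp is best known from neurons. Neuron markers summed to 1.59 to 18.3 FPKM in the CK-p25 PU.1 cKO libraries, 1.25 to 14.7 FPKM in CK-p25 libraries and 2.83 to 7.95 FPKM in CK libraries, and astrocyte markers to 26.7 to 121 FPKM in the CK-p25 PU.1 cKO libraries, 32.6 to 226 FPKM in CK-p25 libraries and 3.47 to 9.74 FPKM in CK libraries. Gfap alone measured 22.4 to 109 FPKM in the CK-p25 PU.1 cKO libraries, 27.6 to 203 FPKM in CK-p25 libraries and 1.36 to 4.13 FPKM in CK libraries. Of the 5 astrocyte markers, 1 was called higher in CK-p25 against CK and 2 in CK-p25 PU.1 cKO against CK. Over all genes the shares called higher were 17.6% and 17.8%. The part of neurons and astrocytes in Pianp was not tested. None of the genes of these lists was called in CK-p25 PU.1 cKO against CK-p25 with limma. At an unadjusted p under 0.05, 3 inhibitory receptors, 2 activating receptors and 2 adaptors or kinases passed.

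**Figure D4:**
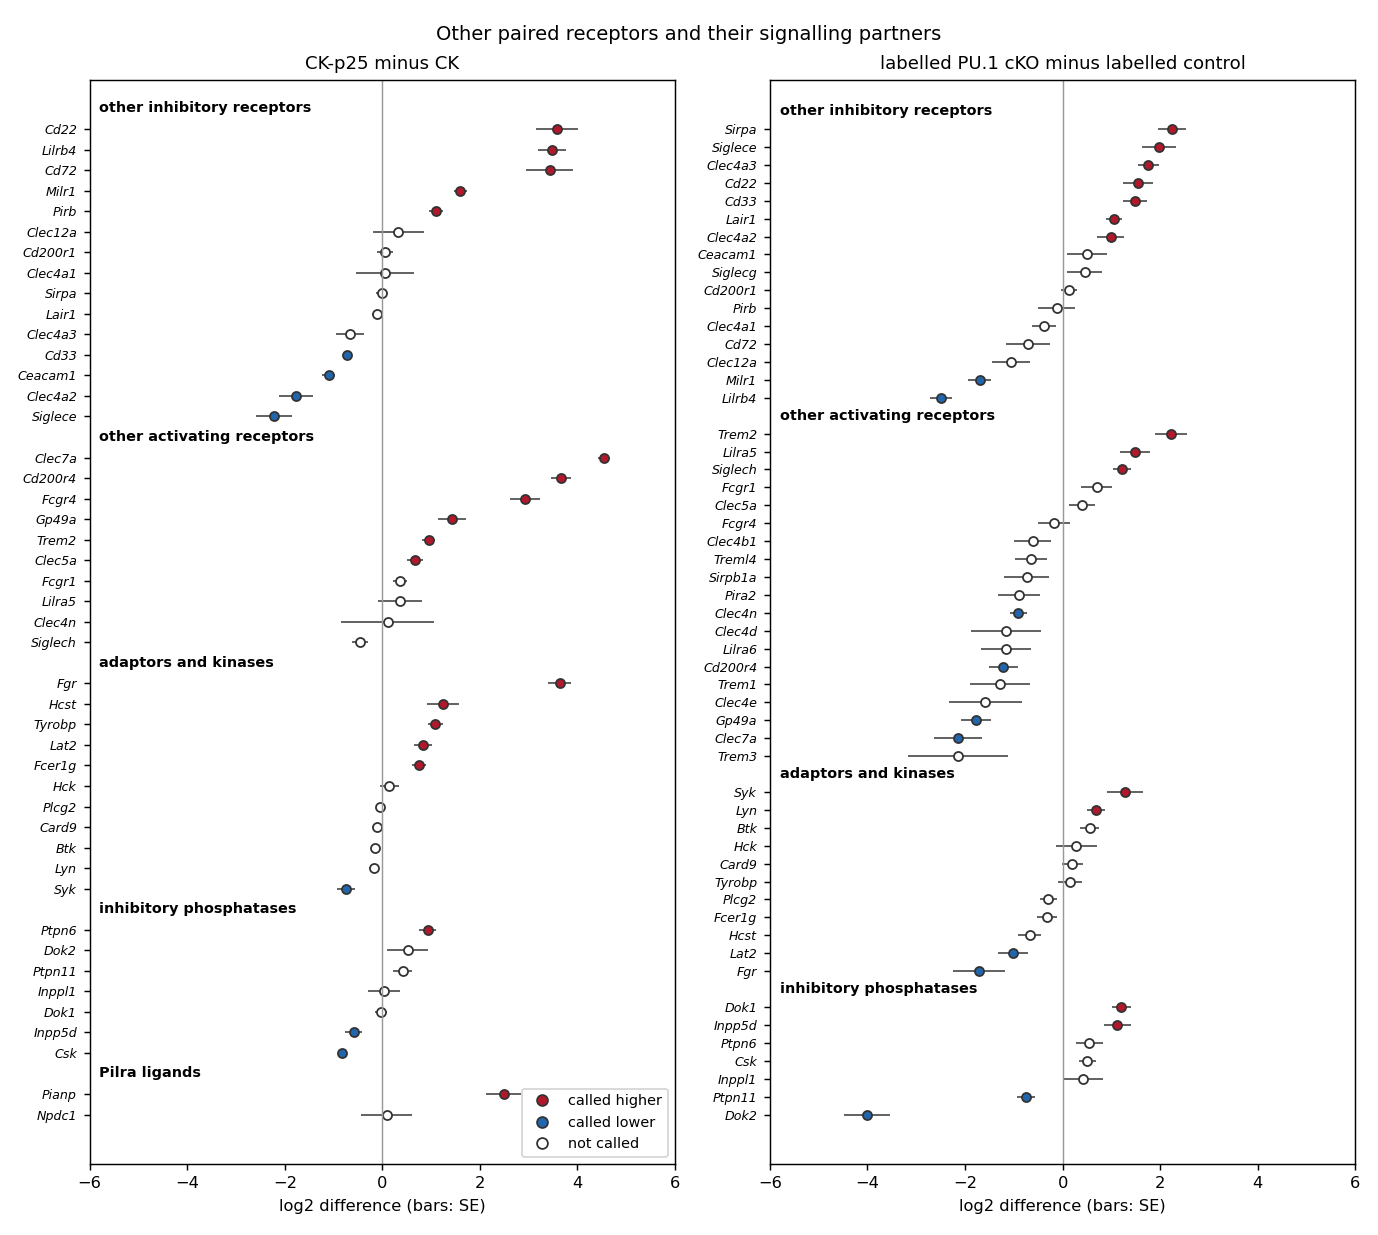
Log2 differences (bars, SE) of the other receptors, adaptors, kinases and phosphatases in CK-p25 against CK and in labelled PU.1 cKO against labelled control, filled where called. Clec7a, Cd200r4, Fgr, Cd22, Lilrb4 and Cd72 stood above 3 in CK-p25 against CK, and Dok2 was lowest at 3 months, at -4.01.

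At 3 months 7 of 16 tested inhibitory receptors were called higher and 2 lower in labelled PU.1 cKO against labelled control (median 0.48, against -0.03 over all genes). In that comparison 12.4% of all genes were called higher and 17.8% lower. Sirpa, the receptor of the don't-eat-me ligand Cd47, rose by 2.24 ± 0.29 (limma adjusted p = 0.00199), Siglece by 1.98 ± 0.35 (0.00649) and Clec4a3 by 1.75 ± 0.21 (0.00167). Lilrb4 fell by 2.49 ± 0.23 (0.000565) and Milr1 by 1.70 ± 0.24 (0.00279). Of 19 tested activating receptors 3 were called higher and 4 lower (median -0.89). Several averaged below 1 FPKM in labelled PU.1 cKO libraries and passed the filter only through labelled control. Examples are Trem3 (0.752 against 15.7 FPKM), Clec4e (0.639 against 6.07) and Cd200r4 (0.479 against 2.48). Their direction was set by the filter, so neither the count called lower nor the median is support for a fall. Trem2, a lipid receptor of microglia and one of the 12 microglia markers counted above, rose by 2.23 ± 0.33 (0.00364), Lilra5 by 1.48 ± 0.30 (0.0111) and Siglech by 1.23 ± 0.18 (0.00367), and Gp49a fell by 1.77 ± 0.30 (0.00597). Clec7a fell by 2.14 ± 0.49 (0.0166), a call lost without labelled PU.1 cKO replicate 2 (-1.94), and Cd200r4 by 1.22 ± 0.30 (0.0207), a call lost without labelled PU.1 cKO replicate 1 or 3 or labelled control replicate 3 (-1.20 to -1.11).

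Of 11 adaptors and kinases 2 were called higher and 2 lower at 3 months, against 12.4% and 17.8% of all genes. All 4 calls depended on single libraries. Syk rose by 1.28 ± 0.36 and Lyn by 0.69 ± 0.18 (limma adjusted p = 0.0356 and 0.0275), and Fgr fell by 1.71 ± 0.53 and Lat2 by 1.02 ± 0.30 (limma adjusted p = 0.0474 and 0.0400). Leaving out single libraries took Syk to between 0.96 and 1.24 (labelled PU.1 cKO replicates 2 and 3, labelled control replicates 1 and 3) and Lyn to between 0.59 and 0.76 (any labelled PU.1 cKO replicate, labelled control replicate 1), with the call lost each time. The same happened to Fgr (-1.77 to -1.17) and Lat2 (-1.20 to -0.85) without any library except labelled control replicate 2. Of 7 phosphatase and docking genes, Dok1 rose by 1.21 ± 0.19 (limma adjusted p = 0.00400) and Inpp5d by 1.12 ± 0.27 (0.0208), and Dok2 fell by 4.01 ± 0.47 (0.00141) and Ptpn11 by 0.76 ± 0.18 (0.0206). The calls of Inpp5d (0.97 to 1.04) and Ptpn11 (-0.79 to -0.66) were lost without labelled PU.1 cKO replicate 2 or 3 or labelled control replicate 1 or 3. Tyrobp, Fcer1g, Hcst and Ptpn6 were not called, and Tyrobp measured 1899, 1689 and 1869 FPKM in labelled PU.1 cKO libraries and 1720, 1240 and 2061 FPKM in labelled control libraries.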

How the data were processed

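The authors deposited FPKM values for 23951 genes in each of 2 tables, with 6 libraries at 3 months and 9 at 4.5 months. The submitters' processing notes name TopHat, Bowtie, Cufflinks 2.0.0 and the mm9 build. Per the labels' protocols, cDNA was made with a low-input kit and libraries by tagmentation, and neither kit marks strand. No counts were given, so no count model was fitted. Columns were matched to samples by the descriptions in the labels, and 4 ChIP samples were not analysed here.

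Values were taken as log2(FPKM + 1) and genes averaging 1 FPKM or more across their table were tested. A gene below 1 FPKM in 1 group could pass only through a group where it was higher. Its direction between those groups was then set by the filter. Each table was fitted on its own with limma 3.58.1 in R 4.3.3 (a mean-variance trend, group as the only term, all libraries of the table), two-sided, with Benjamini-Hochberg adjustment over all genes tested and a threshold of 0.05. The fit was tested on simulated data.

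The members and gene lists were chosen with earlier results of these data known. The text names all members, Spi1, the other family genes, Tyrobp, Fcer1g, Hcst, Syk, Ptpn6 and Inpp5d, up to 3 genes of each list called in each direction with the largest difference, and the 3 genes most like each member, of which 1 is not reported here. Alternatives were other pseudocounts, filters, scalings, no trend, a replicate block, only the compared libraries, and each library left out. Start-site windows are RefSeq's (GRCm38.p6), matched by symbol for all 5 members. Coordinates of the authors' build were not used.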

Additional observations from a re-analysis of the deposited data

Results flagged for a closer look

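By the sample titles, the difference of Cd300lf ran in opposite directions in the 2 comparisons of libraries labelled as PU.1 cKO with those of their own control. It was -2.64 on the log2 scale in labelled PU.1 cKO against labelled control at 3 months, with every labelled PU.1 cKO library below every labelled control library. It was 0.32 in CK-p25 PU.1 cKO against CK-p25 at 4.5 months, with every CK-p25 PU.1 cKO library above every CK-p25 library. That second difference was not called, and the closest libraries of its groups both stood at 17.3 FPKM. The 3-month groups were without CK-p25 and were taken 1 week after tamoxifen, against 6 weeks at 4.5 months. The difference between the comparisons was not tested, and the labels of the 3-month groups contradict each other. Spi1 was higher in every labelled PU.1 cKO library than in any labelled control library. Under the column names the 3-month difference of Cd300lf changes sign, and both comparisons then run the same way.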

How the results depend on the processing

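In the comparisons with CK and at 3 months no member's difference changed sign under any alternative run. In CK-p25 PU.1 cKO minus CK-p25, where none was called, Cd300ld (0.01 as reported) reached -0.22 and Cd300a (-0.06) reached 0.03, both with CK-p25 replicate 3 left out. Quantile normalization turned the sign of Spi1 in CK-p25 minus CK (-0.39), of AF251705 in CK-p25 PU.1 cKO minus CK (-0.17) and of Tyrobp in labelled PU.1 cKO minus labelled control (-0.23), none of which had been called. It also gave 13 list genes called lower in CK-p25 minus CK and 13 in CK-p25 PU.1 cKO minus CK, against 7 and 8 as reported, and moved the share of higher calls among all genes to 45.6% and 45.9%, against 56.3% and 57.2%. The causes were not tested. In CK-p25 minus CK the number of members called lower, 1 as reported, was 0 with no filter, 0 when the variance trend was dropped and 0 when only the 6 compared libraries were fitted. In labelled PU.1 cKO minus labelled control it was 4 as reported and 3 with a pseudocount of 5, with no filter and under quantile normalization. Leaving out single libraries gave 0 to 1 members called lower in CK-p25 minus CK, 0 to 1 in CK-p25 PU.1 cKO minus CK and 1 to 4 in labelled PU.1 cKO minus labelled control, and 0 to 2 list genes called lower in CK-p25 PU.1 cKO minus CK-p25 (the 2 when CK-p25 PU.1 cKO replicate 3 was left out), and 6 to 15 in labelled PU.1 cKO minus labelled control. The difference of Spi1 in CK-p25 minus CK then lay between -0.10 and 0.16, and that of Tyrobp in labelled PU.1 cKO minus labelled control between -0.052 and 0.31. Deviations of same-numbered libraries correlated at -0.02 to 0.13 at 4.5 months and -0.05 to 0.17 at 3 months. Those of differently numbered libraries correlated at -0.22 to 0.15 and -0.26 to 0.12. These ranges overlap and do not settle whether replicate numbers pair the libraries. With the replicate block the members called stayed at 2 higher and 1 lower in both comparisons with CK and at 1 and 4 at 3 months, and Spi1 passed in CK-p25 PU.1 cKO minus CK (-0.46, limma adjusted p = 0.0237). Without counts, precision cannot be read from depth, and 3 libraries a group limit it.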
